A study of Mus musculus with 43 samples.

Results

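The 10 imprinted genes H19, Igf2, Dlk1, Meg3, Peg3, Mest, Cdkn1c, Plagl1, Grb10 and Snrpn were followed through RNA levels and promoter chromatin of the juvenile mouse testis with and without germline Prmt1, the main enzyme that places asymmetric dimethyl groups on arginine. The genes were chosen by name and matched by GENCODE vM21 identifier to 10 of the 55401 genes in each RNA table, and all 10 passed the filter on low counts. In Smart-seq2, Meg3, Mest and Plagl1 passed it through their Prmt1-dKO libraries alone. RNA was measured at postnatal day 7 (P7) in 2 ways. Bulk RNA-seq held 3 WT and 3 Prmt1-dKO libraries, labelled spermatogonia but prepared, per the protocol, from total testis RNA with poly(A) selection. Smart-seq2 held 2 WT and 2 Prmt1-dKO libraries, each from a pool of sorted Ddx4-GFP+ germ cells. Prmt1-dKO mice carried floxed Prmt1 alleles and the tamoxifen-inducible Ddx4-CreERT2 driver, which is active in germ cells, and had received tamoxifen. The methods describe the sorted controls, labelled WT, as heterozygous for the floxed allele and carrying the driver. Chromatin was profiled by CUT&Tag, which cuts DNA beside an antibody-bound histone mark, at P7 and P14 in C57BL/6J WT cells and, for H4R3me2s at P7, also in Prmt1-dKO cells. It gave 33 peak lists, 17 at P7 and 16 at P14. The cells came, per the methods, from a tubule suspension filtered to remove Sertoli cells, not from sorting, so other cells may remain.

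An imprinted gene is expressed from 1 parental copy, and DNA methylation laid down in the germline marks which one. In the male germline these marks are erased before birth and a paternal pattern is set, so male germ cells and the somatic cells around them differ in the state of every such locus. Igf2, Dlk1, Peg3, Mest, Plagl1 and Snrpn are expressed from the paternal copy in most tissues, and H19, Meg3, Cdkn1c and, outside the brain, Grb10 from the maternal one. Igf2, Dlk1 and Plagl1 promote fetal growth, whereas H19, Cdkn1c and Grb10 restrain it, and several of these genes are abundant in young somatic tissue and decline with age.

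The genes lie at 8 places in the genome (GRCm38, the mm10 build of the files). H19 (ENSMUSG00000000031.16, lincRNA, chr7:142575529-142578143, minus strand) and Igf2 (ENSMUSG00000048583.16, chr7:142650766-142666816, minus) are 72623 bp apart and share an enhancer region and a paternally methylated control region. Cdkn1c (ENSMUSG00000037664.13, chr7:143458339-143461050, minus) lies 791523 bp beyond Igf2 in the Kcnq1ot1 domain. Dlk1 (ENSMUSG00000040856.17, chr12:109452823-109463336, plus) and Meg3 (ENSMUSG00000021268.17, lincRNA, chr12:109541001-109571726, plus) are 77665 bp apart, with a paternally methylated control region between them. Peg3 (ENSMUSG00000002265.17, chr7:6703892-6730431, minus), Mest (ENSMUSG00000051855.15, chr6:30723547-30748465, plus), Plagl1 (ENSMUSG00000019817.18, chr10:13060504-13131694, plus), Grb10 (ENSMUSG00000020176.17, chr11:11930508-12038683, minus) and Snrpn (ENSMUSG00000102252.5, chr7:59982495-60140219, minus) each carry maternally methylated DNA at a promoter. Some read assignments are uncertain. Igf2 shares 62.83% of its exon bases with the read-through model Gm49394, Snrpn shares 27.28% with Gm38393 and 10% with Snurf, and Mest overlaps Copg2 on the opposite strand over 23.12% of its exon bases.

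RefSeq promoter sequence (GRCm38.p6) was matched for 8 of the 10 genes, with none for H19 and Cdkn1c. The 250 bases before the start are shown for the pair that moved in opposite directions in bulk RNA-seq, Dlk1 and Meg3, and for Mest, Plagl1 and Peg3, whose promoters carry imprinting marks. Each runs 5' to 3' on the strand of the gene, and capitals mark CpG, the dinucleotide that carries the methylation.
Dlk1, chr12:109452573-109452822, plus strand: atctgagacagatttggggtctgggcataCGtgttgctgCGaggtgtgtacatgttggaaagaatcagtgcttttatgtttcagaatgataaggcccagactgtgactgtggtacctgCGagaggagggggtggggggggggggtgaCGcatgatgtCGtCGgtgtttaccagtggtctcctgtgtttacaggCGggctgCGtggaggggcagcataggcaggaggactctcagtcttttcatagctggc
Meg3, chr12:109540746-109540995, plus strand: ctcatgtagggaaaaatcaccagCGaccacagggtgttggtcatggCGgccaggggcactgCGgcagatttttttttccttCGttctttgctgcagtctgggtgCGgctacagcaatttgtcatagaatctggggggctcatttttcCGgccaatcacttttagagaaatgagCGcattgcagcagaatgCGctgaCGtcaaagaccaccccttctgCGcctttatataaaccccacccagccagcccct
Mest, chr6:30737800-30738049, plus strand: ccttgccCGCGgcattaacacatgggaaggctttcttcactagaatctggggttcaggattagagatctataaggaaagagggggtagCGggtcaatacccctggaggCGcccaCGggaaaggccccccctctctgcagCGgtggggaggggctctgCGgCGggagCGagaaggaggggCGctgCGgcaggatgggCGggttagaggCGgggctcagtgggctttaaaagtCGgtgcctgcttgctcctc
Plagl1, chr10:13090582-13090831, plus strand: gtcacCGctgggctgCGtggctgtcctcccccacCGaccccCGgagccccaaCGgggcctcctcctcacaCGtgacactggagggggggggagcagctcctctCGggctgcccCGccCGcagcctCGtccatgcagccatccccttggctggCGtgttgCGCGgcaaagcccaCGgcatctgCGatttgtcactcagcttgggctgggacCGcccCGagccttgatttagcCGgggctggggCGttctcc
Peg3, chr7:6730420-6730669, minus strand: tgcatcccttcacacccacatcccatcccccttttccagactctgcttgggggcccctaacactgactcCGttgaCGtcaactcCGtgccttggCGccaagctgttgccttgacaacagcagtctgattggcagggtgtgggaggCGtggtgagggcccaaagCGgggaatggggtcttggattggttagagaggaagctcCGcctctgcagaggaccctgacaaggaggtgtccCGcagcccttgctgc

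The median over 32841 promoters of the RefSeq table was 6 CpG in the same 250 bases (25th to 75th percentile 2 to 16). Plagl1 had 19 CpG and Mest 14, while Meg3 had 10 and Dlk1 and Peg3 had 8 each. The densest of the 18 windows listed for the genes was that of Grb10 at chr11:12037421-12037670, with 40 CpG, above 98.7% of all promoters. The Snrpn window at chr7:60005200-60005449 held 3. The hexamer TGCCGC, which the imprint guardian ZFP57 binds when methylated, was searched on both strands and can overlap a capitalised CpG. It occurred 2 times in the Mest window shown, 1 time in that of Plagl1 and 1 time in that of Meg3, and in 8.68% of all promoters. TATAAA, the core of the TATA box, was also searched on both strands. It matched 1 time on each strand of the Meg3 window, in overlapping bases, and occurred in 12.4% of all promoters.

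In WT bulk RNA, which holds every cell type of the testis, the 10 genes spanned a wide range of TPM (transcript abundance scaled for length and library size, so that genes can be compared). Dlk1, a membrane ligand that resembles Notch ligands, came first with 843 ± 13.2 TPM (SD, n = 3), and the long noncoding RNAs Meg3 and H19 followed with 472 ± 24.1 and 384 ± 26.9. Igf2, the insulin-like growth factor, had 198 ± 15.8. The transcription factor Plagl1 (74.2 ± 9.38) and the cyclin-dependent kinase inhibitor Cdkn1c (70.2 ± 10.7) overlapped between libraries. Mest, an alpha/beta hydrolase (50.6 ± 3.26), the zinc finger protein Peg3 (45.4 ± 5.29) and the receptor adaptor Grb10 (43.6 ± 2.7) followed, with overlap between Mest and Peg3 and between Peg3 and Grb10. Snrpn, a component of the splicing machinery, was lowest with 19 ± 1.26. Dlk1 ranked 147th, Meg3 260th and H19 314th among 15493 genes with a mean of at least 1 TPM.

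In sorted WT germ cells the order was different. Snrpn had the highest mean, from 14.21 and 52.63 TPM in the 2 libraries, but overlapped Igf2, the next in order, and was below Igf2, Cdkn1c and Peg3 in the first library. Plagl1 was listed at 0 in both. Meg3 had 0.05 and 0 TPM, and Mest 2.54 and 0. Igf2 (36.61 and 19.06), Cdkn1c (25.91 and 20.89), Dlk1 (8.17 and 32.32), H19 (12.52 and 14.72), Peg3 (14.28 and 7.06) and Grb10 (3.64 and 8.73) lay between, and every neighbouring pair among these 6 overlapped. For Grb10 the deposited scales disagreed in direction, with 243 counts in the first library and 37 in the second.

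**Figure D1:**
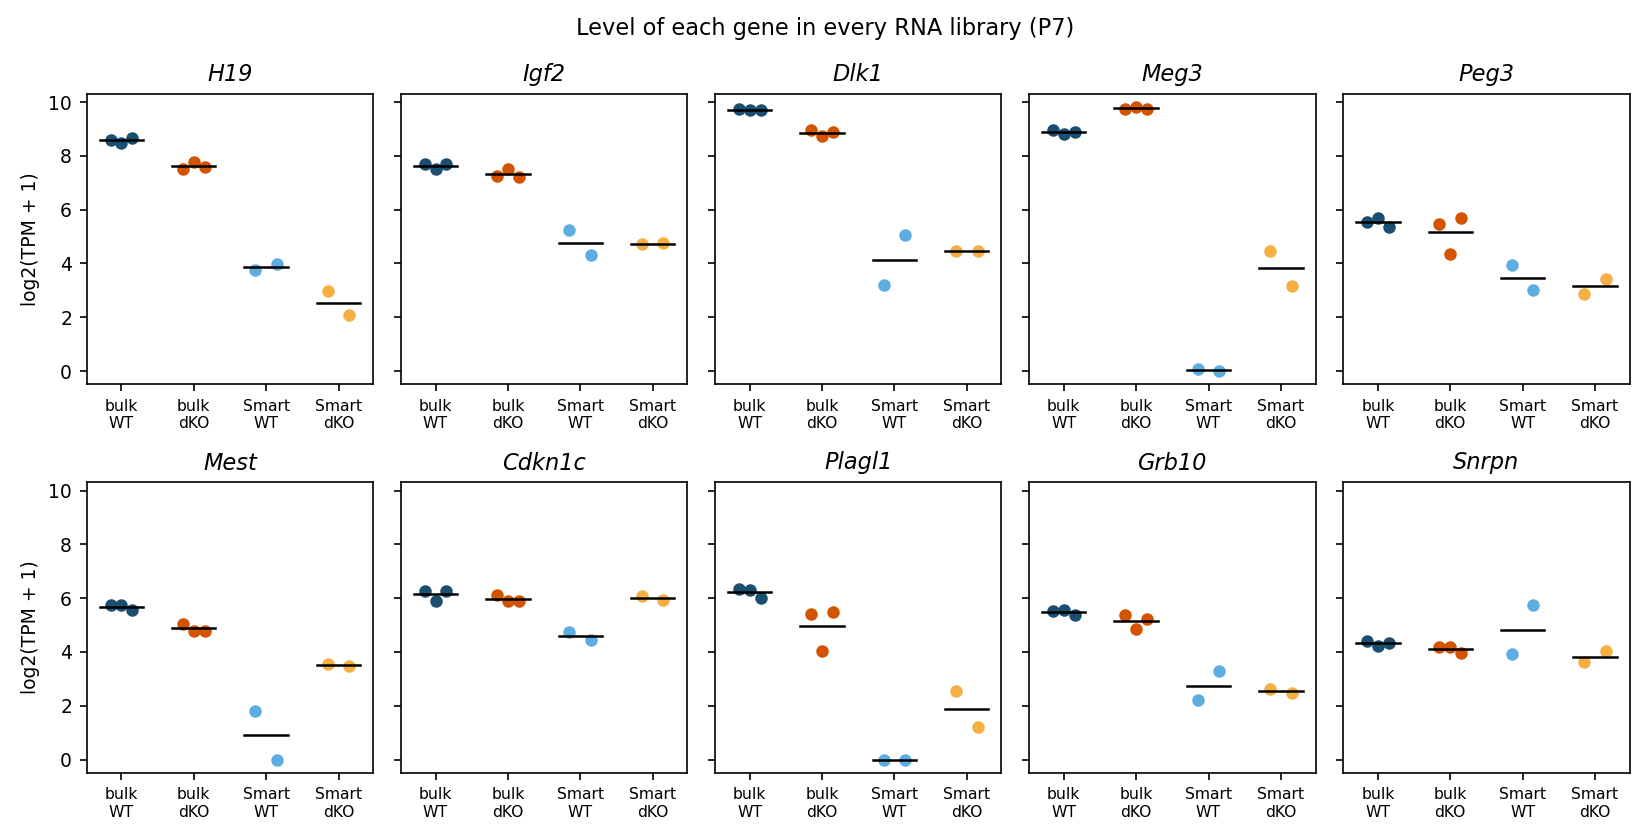
Level of each gene as log2(TPM + 1) in each RNA library at P7, 1 panel per gene, with bulk WT, bulk Prmt1-dKO, Smart-seq2 WT and Smart-seq2 Prmt1-dKO along the x axis. Points are libraries and lines are group means; Meg3 and Plagl1 sit at or near 0 in both Smart-seq2 WT libraries, and Snrpn is the one gene whose Smart-seq2 WT mean lies above its bulk WT mean.

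Before the genotypes were compared, Prmt1 itself was checked. It had 3540, 3572 and 3927 counts in bulk WT against 1996, 2496 and 2484 in bulk Prmt1-dKO (log2 fold change -0.49, SE 0.13, adjusted p = 0.0334), and 4182 and 2852 against 1746 and 1307 in Smart-seq2 (-0.88, SE 0.26, adjusted p = 0.133). Gene counts include the exons outside the deleted part. Libraries held 12396345 to 16598249 counts in bulk and 15610392 to 18547103 in Smart-seq2. The 2 Smart-seq2 WT libraries correlated with r = 0.788 over log2 CPM, against 0.953 for the Prmt1-dKO pair and 0.965 to 0.99 within the bulk groups, and 1057 genes reached 100 counts in one of the WT pair while having 1 or 0 in its partner. Labels name the libraries as replicates and do not say that each came from a separate animal, so the p-values measure the spread between these libraries.

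In bulk RNA, 5 of the 10 genes fell in Prmt1-dKO (H19, Dlk1, Mest, Plagl1 and Igf2), 1 rose (Meg3), and Peg3, Grb10, Cdkn1c and Snrpn did not pass the test. Over all 16554 genes tested, 8.51% fell and 10.6% rose at the same adjusted p (edgeR, under 0.05). None of the 10 also reached a 2-fold change, which 1.78% of all genes did downward and 5.32% upward. By library values, 6 of the 10 had every Prmt1-dKO library below every WT library (19.9% of all genes) and 1 had every one above (20.9%). The median log2 fold change of the 10 was -0.3, beside 0.02 for all genes. In whole tissue, fewer cells of a type and less RNA per cell cannot be told apart.

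The noncoding RNAs of both paternally methylated loci moved in opposite directions. H19, which is not translated and hosts a microRNA, had 482, 435 and 538 CPM (counts scaled to library size by the TMM method) in WT and 230, 322 and 243 in Prmt1-dKO. The groups did not overlap, and H19 fell to 0.55 of its WT level (log2 fold change -0.87, SE 0.15, adjusted p = 0.00528). Meg3, a nuclear RNA transcribed from the maternal copy of the Dlk1 locus, had 289, 260 and 254 CPM in WT and 500, 529 and 459 in Prmt1-dKO. The groups were fully separated, a 1.85-fold rise (log2 fold change 0.89, SE 0.11, adjusted p = 0.00177), and Meg3 took the place of Dlk1 as the highest of the 10 genes by TPM.

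Their protein-coding partners both fell. Dlk1 had 760, 758 and 777 CPM in WT and 464, 461 and 486 in Prmt1-dKO, with no overlap (log2 fold change -0.70, SE 0.09, adjusted p = 0.0024). In the same 6 libraries Meg3, the other gene of the locus, was up. Igf2 had 269, 250 and 260 CPM in WT and 195, 215 and 204 in Prmt1-dKO (log2 fold change -0.34, SE 0.10, adjusted p = 0.0373). The groups did not overlap, and the call held with DESeq2, limma-voom, RLE size factors and no filter (adjusted p 0.00472 to 0.0431). With the replicate number as a block in edgeR it was lost (0.133). When single libraries were left out, it held without Prmt1-dKO replicate 2 (0.00325) and was lost without any one of the other 5 (0.064 to 0.161).

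Among the genes with a maternally methylated promoter, Mest and Plagl1 fell. Mest had 75.8, 76.5 and 71.3 CPM in WT and 49.2, 49.1 and 42.2 in Prmt1-dKO (log2 fold change -0.67, SE 0.11, adjusted p = 0.00437). Plagl1 had 184, 187 and 154 CPM in WT and 108, 59.8 and 128 in Prmt1-dKO (-0.82, SE 0.24, adjusted p = 0.042). The Plagl1 call was kept without Prmt1-dKO replicate 2 or 3, and was lost without Prmt1-dKO replicate 1 (0.08) and without any one WT library (0.0736 to 0.134). With the replicate number as a block it was lost too (0.0572). Grb10 had 135, 134 and 126 CPM in WT and 118, 99.2 and 113 in Prmt1-dKO, without overlap, at an adjusted p of 0.121 (-0.26, SE 0.11). Peg3 ranged from 227 to 270 CPM in WT and from 131 to 302 in Prmt1-dKO (adjusted p = 0.717). Prmt1-dKO replicate 2 was the lowest library for Peg3, Plagl1 and Grb10.

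Cdkn1c and Snrpn overlapped between genotypes. Cdkn1c had 49.0, 40.4 and 55.6 CPM in WT and 46.2, 53.4 and 47.6 in Prmt1-dKO (log2 fold change 0.02, SE 0.14, adjusted p = 0.929), and Snrpn ranged from 18.8 to 21.7 and from 17.2 to 23.0 (-0.06, SE 0.15, adjusted p = 0.803). In the domain of Cdkn1c, the antisense noncoding RNA Kcnq1ot1 rose in the same libraries, from 179, 270 and 173 to 372, 364 and 481 counts (1.14, SE 0.17, adjusted p = 0.00328).

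Somatic markers moved in these libraries too. The summed TPM of 10 Leydig cell markers fell from 1000 to 1120 across WT libraries to 458 to 504 in Prmt1-dKO, and 5 of the 10 were called lower while 1 passed the test upward. Among the lower ones was the steroidogenic enzyme Cyp17a1 (log2 fold change -4.97, adjusted p = 4.07e-05). Of 8 peritubular muscle markers 6 fell and none rose, and their summed TPM went from 1330 to 1450 down to 532 to 977. The sum of 12 Sertoli markers was 7470 to 8040 in WT and 5280 to 5770 in Prmt1-dKO, where 5 of 11 tested fell. In contrast, 10 stromal markers summed to 2750 to 2930 and 3030 to 3470, with 3 past the test upward and 1 downward, and 14 germ cell markers to 2010 to 2310 and 1880 to 1970, with 1 past the test downward. Of 7 endothelial and 8 macrophage markers, 2 in each list passed the test upward and 1 downward. The part of these cell types in the differences of the imprinted genes was not tested.

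In sorted germ cells no gene of 16443 tested passed the adjusted p (0.0% in either direction by edgeR, against 2267 at least 2-fold higher and 678 lower at an unadjusted p under 0.05), so none of the 10 did. By library values, 5 of the 10 had both Prmt1-dKO libraries above both WT libraries (Meg3, Mest, Plagl1, Cdkn1c and Grb10), beside 36.3% of all genes. Nothing is read from that count, since the filter kept the first 3 of these through their Prmt1-dKO libraries. Among the 10, 1 had both below (H19), beside 20.3%. Grb10 is among the 5 by CPM only, since by TPM its libraries overlapped and the mean was 6.19 in WT and 4.87 in Prmt1-dKO. At the same adjusted p and at least 2-fold, DESeq2 called 1220 genes higher and 659 lower of 24498, and limma-voom 1546 and 150 of 16443. Meg3, Mest, Cdkn1c and Plagl1 passed upward by DESeq2, and the same genes without Mest by limma-voom. Of these, Meg3, Mest and Plagl1 were in the test through their Prmt1-dKO libraries alone, which fixed their direction.

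Cdkn1c, which blocks the cell cycle at G1, gave the tightest difference. It had 20.7 and 18.5 CPM in WT and 64.9 and 58.3 in Prmt1-dKO, with no overlap (log2 fold change 1.65, SE 0.30, edgeR adjusted p = 0.0774). With DESeq2 the adjusted p was 7.92e-05 and with limma-voom 0.044, and over all alternatives it ran up to 1. By summed counts the ratio was 2.79 (95% interval 2.56 to 3.04, covering counting error only).

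Meg3, Mest and Plagl1 went from nearly nothing to moderate counts. Meg3 had 1 and 0 counts in WT and 199 and 84 in Prmt1-dKO, a ratio of 316 with a counting interval from 56.2 to 12500 (edgeR adjusted p = 0.0774). Plagl1 had 0 and 0 counts in WT and 356 and 35 in Prmt1-dKO, at least 145-fold higher against a floor of 3 counts over the 2 WT libraries (adjusted p = 0.097). Mest had 19 and 0 counts in WT and 337 and 274 in Prmt1-dKO, a ratio of 35.9 with a counting interval from 22.8 to 60.0 (adjusted p = 0.219). Fitted fold changes of such genes depend on the prior count. The pattern of Meg3 and Plagl1 was frequent, since 1545 tested genes, 9.4%, had at most 1 count in both WT libraries and at least 10 in both Prmt1-dKO libraries, against 68 the other way. Mest, with 19 counts in 1 WT library, is not among them.

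The remaining genes turned on single libraries. H19 had 13.9 and 24.4 CPM in WT and 10.6 and 2.65 in Prmt1-dKO, without overlap (log2 fold change -1.53, SE 0.97, adjusted p = 0.45). Snrpn had 19.6 and 72.4 CPM in WT, and the first of these lay within the Prmt1-dKO pair (19.2 and 23.1). Dlk1 likewise had 7.61 and 35.7 in WT around 30.1 and 26.9. Igf2 had 22.8 and 13.9 CPM in WT and 18.3 and 19.6 in Prmt1-dKO, and Peg3 53.2 and 32.9 against 39.1 and 55.8. Grb10 had 12.6 and 1.94 against 19.6 and 18.7 (adjusted p = 0.544).

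**Figure D2:**
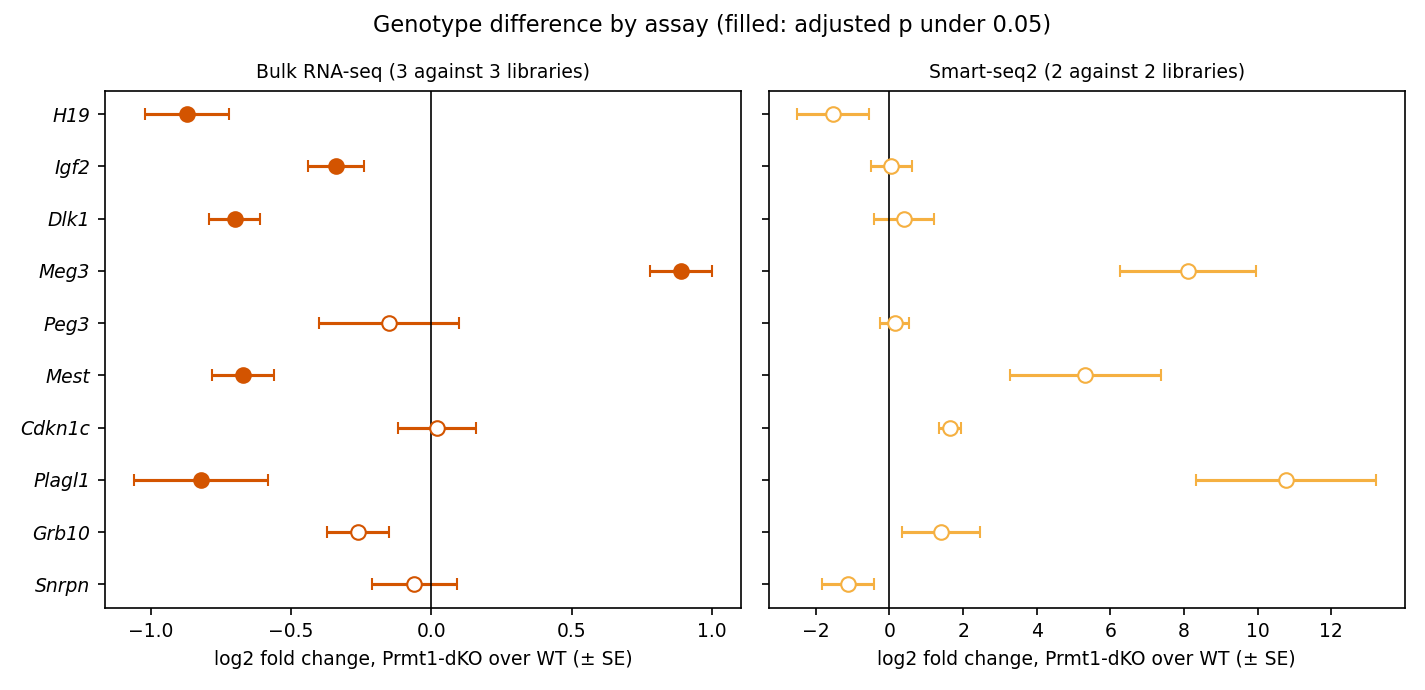
Log2 fold change of Prmt1-dKO over WT for each gene in bulk RNA-seq (left) and Smart-seq2 (right), with the standard error of the fit, on x axes of different range. Filled points had an adjusted p under 0.05; 6 genes are filled in bulk and none in Smart-seq2, where Meg3, Mest and Plagl1 rest on at most 19 counts in any WT library.

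Markers of some other cells also differed between the sorted libraries. All 8 macrophage markers were at 0 in both WT libraries, and 7 of the 8 had counts in both Prmt1-dKO libraries, where they summed to 40.1 to 47.0 TPM. Stromal markers summed to 7.37 to 20.3 TPM in WT and 30.5 to 40.7 in Prmt1-dKO, Sertoli markers to 387 to 388 and 654 to 874, and peritubular markers to 8.19 to 42.3 and 16.1 to 26.1. Endothelial markers summed to 1.56 to 5.2 TPM in WT and 2.38 to 2.86 in Prmt1-dKO, which overlap. Leydig markers summed to 53.9 to 67.3 TPM in WT and 58.0 to 71.0 in Prmt1-dKO. Of these 10 markers, Cyp11a1, Cyp17a1, Lhcgr and Ren1 were at 0 in all 4 libraries, while Hsd3b1 had 0 and 0 counts in WT and 25 and 72 in Prmt1-dKO, and Insl3 0 and 0 against 5 and 8. Germ cell markers summed to 3390 to 3460 TPM in WT and 2860 to 2930 in Prmt1-dKO. Whether cells of these types carried the Meg3, Mest or Plagl1 counts was not tested.

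The 2 assays were then compared within each genotype. Assay and cell purity cannot be told apart here, since every Smart-seq2 library is sorted and every bulk library is not. Control genotype may differ with them, since the methods describe the sorted controls, labelled WT, as heterozygous floxed with the driver. In WT, 9 of the 10 genes were called lower in Smart-seq2 (edgeR, adjusted p under 0.05 and at least 2-fold), against 34.2% of 19608 genes tested, and none was called higher (17.8% of all genes). In Prmt1-dKO, 7 were called lower (25.4% of all genes) and none higher (16.8%). The median log2 fold change of the 10 was -4.51 in WT and -2.75 in Prmt1-dKO, beside -0.46 and -0.18 over all genes.

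Plagl1 and Meg3 were nearly absent from the sorted WT libraries. Plagl1 had 8247 counts over the 3 bulk WT libraries and 0 over the 2 sorted ones, at least 2080-fold lower in the latter. Meg3 had 12602 counts against 1, a ratio of 9540 with a counting interval of 1710 to 377000, and Mest 3516 against 19, a ratio of 140 (89.5 to 233). Only 136 of 5225 genes at 50 to 500 CPM in bulk WT, 2.6%, had at most 1 count in both sorted WT libraries. Dlk1 and Igf2 were lower too, with log2 fold changes of -5.23 for Dlk1 (SE 0.59, adjusted p = 0.000104) and -3.91 for Igf2 (SE 0.22, adjusted p = 3.63e-06). H19 had -4.75 (SE 0.55), Grb10 -4.26 (SE 0.66), Peg3 -2.60 (SE 0.39) and Cdkn1c -1.38 (SE 0.19), each with an adjusted p of at most 0.000591. Single sorted WT libraries moved some of these sizes. Without Smart-seq2 WT replicate 1 the value was -4.54 for Dlk1, -6.20 for Grb10 and -13.20 for Mest, and without replicate 2 it was -6.76, -3.50 and -6.34. Snrpn was the exception, 1.07 higher (SE 0.45, adjusted p = 0.0647). This value was 1.70 without Smart-seq2 WT replicate 1 and -0.18 without Smart-seq2 WT replicate 2, fits that leave 1 sorted WT library.

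In Prmt1-dKO the same comparison left Mest (log2 fold change -1.23, SE 0.63, adjusted p = 0.134), Cdkn1c (0.33, SE 0.18, 0.149) and Snrpn (0.11, SE 0.45, 0.861) short of the test. Meg3 (-5.75, SE 0.38) and H19 (-5.32, SE 0.57) remained far lower in the sorted cells. Without Smart-seq2 Prmt1-dKO replicate 1 these were -6.49 and -6.65, and Plagl1 went from -2.97 to -5.42; without replicate 2, H19 was -4.65 and Plagl1 -2.12. The Grb10 call (-2.52, adjusted p = 0.00776) was lost without either Smart-seq2 Prmt1-dKO library, replicate 1 (0.0588) or replicate 2 (0.0641). Of 12 Sertoli markers 11 were called lower and 1 higher in sorted WT cells, beside 34.2% and 17.8% of all genes, and Amh had 9244, 8256 and 10860 counts in bulk WT and 55 and 40 in sorted WT.

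The genotype difference itself differed between the assays for 4 of the 10 genes, each more upward in Smart-seq2 than in bulk, by the interaction term of a fit over all 10 libraries. Over all genes 14.7% passed upward and 4.24% downward. For Meg3 the difference was 7.27 (SE 0.77, adjusted p = 0.000444), for Mest 6.07 (SE 1.0, 0.00362), for Plagl1 11.49 (SE 2.04, 0.00695) and for Cdkn1c 1.72 (SE 0.26, 0.00229), all on the log2 scale. The sizes of the first 3 rest on the near absence of counts in WT. The fit, also used for the assay comparisons, shared 1 estimate of spread between assays. Its coefficient of variation between libraries was 0.449, beside 0.155 for bulk alone and 0.767 for Smart-seq2 alone. The spread of Smart-seq2 is thus understated there. For Cdkn1c the SE lay below the 0.3 found within Smart-seq2, where no gene passed. The controls of the assays may also differ in genotype. Leaving out a sorted library leaves 1 in its group, so only sizes are given. Without Smart-seq2 WT replicate 1 the difference was 9.28 for Meg3 and 11.95 for Mest, and without replicate 2 it was 6.46 and 5.09. Without Smart-seq2 Prmt1-dKO replicate 1 it was 6.56 for Meg3 and 9.05 for Plagl1, and without replicate 2 it was 12.36 for Plagl1. Mest and Plagl1 fell in bulk and had higher counts in the sorted Prmt1-dKO cells, while Meg3 was higher in both. For the other 6 genes the interaction did not pass, with adjusted p from 0.159 for Grb10 to 0.699 for Peg3. Their sizes moved when a sorted library was left out. The interaction was 3.66 and 0.96 for Grb10 without WT replicate 1 and 2, and 2.7 for Dlk1 without WT replicate 2. It was -1.61 for Snrpn and 0.90 for Igf2 without WT replicate 1, and -1.87 for H19 without Prmt1-dKO replicate 1.

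Other imprinted genes were counted by the parental copy they are expressed from. In bulk, of 19 tested paternally expressed genes outside the 10, 5 rose and 2 fell, beside 10.6% and 8.51% of all genes, and Usp29, which shares its promoter region with Peg3, was called higher (log2 fold change 1.15, SE 0.26, adjusted p = 0.0153) beside Kcnq1ot1. Usp29 is low, with 46 to 55 counts in WT and 71 to 146 in Prmt1-dKO. Of 17 maternally expressed genes 2 rose and 1 fell, near the same shares, the last being Igf2r, the receptor that clears Igf2 (-0.60, SE 0.16, adjusted p = 0.0291). In WT, 10 of 19 paternally and 9 of 19 maternally expressed genes were called lower in sorted cells, beside 34.2% of all genes, and 3 and 2 were called higher, beside 17.8%. Their median log2 fold changes were -2.52 and -1.60, and that of all genes -0.46. Gnas, which encodes a G protein alpha subunit, had a log2 fold change of -6.44 (SE 0.25). Zim1, a neighbour of Peg3, went from 835, 1025 and 838 counts to 0 and 0. Kcnq1ot1 went the other way, called higher in sorted cells by 4.25 in WT (SE 0.22, adjusted p = 2.63e-06) and 2.18 in Prmt1-dKO (SE 0.20, 7.58e-05), with 4588 and 5591 counts in sorted WT against 1782 and 2219 in sorted Prmt1-dKO (genotype adjusted p = 0.0774).

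The signalling genes around Igf2 were counted in the same way. Of 18 genes of insulin-like growth factor signalling, 12 were called lower in sorted WT cells, beside 34.2% of all genes, and 1 passed the test upward below 2-fold. Their median log2 fold change was -3.14, and Igf1, the binding protein Igfbp5 and the insulin receptor Insr had 0 counts in both sorted WT libraries. In bulk, 3 of the 18 rose and 2 fell with the genotype, near the shares of all genes (10.6% and 8.51%), Igfbp5 the furthest (-1.28, SE 0.21, adjusted p = 0.00439). Of the imprint maintenance genes, 1 of 13 tested rose and 3 fell in bulk, none of them 2-fold, beside the same shares. In sorted WT cells 3 of 14 were called higher and 4 lower, beside 17.8% and 34.2% of all genes. Ctcfl, the germline relative of the insulator protein CTCF, was called higher in sorted WT cells (3.87, SE 0.23, adjusted p = 4.29e-06), with 1336 and 1072 counts there and 413 and 407 in sorted Prmt1-dKO, whereas the KRAB zinc finger gene Zfp445 was called lower (-3.16, SE 0.46, 0.000409).

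Genes whose pattern over the 10 libraries was most like each member were found by the root mean square difference of mean-centred log2 CPM among 13235 genes. Meg3 was nearest to Dcn (0.42) and Sparcl1 (0.56), 2 genes of the extracellular matrix, and Dlk1 to Antxr1 and Capn2 (0.27 each). H19 was nearest to Six5 (0.43) and Nr2f2 (0.55), Plagl1 to Olfml3 (0.53) and Itm2a (0.54), and Mest to Gpt2 (0.29) and Ptgr1 (0.36). Igf2 was nearest to Tyro3 (0.10) and Cpe (0.22), Peg3 to Hipk3 (0.15) and Erbin (0.21), and Grb10 to Zfp362 (0.22) and Gm12184 (0.24). Cdkn1c was nearest to Hyls1 (0.16) and Chordc1 (0.17), and Snrpn to Prrg2 (0.14) and Pinx1 (0.19).

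Promoter chromatin was read as the presence of a peak summit within 3000 bp of any transcript start. The windows ran from 7606 bp for H19 to 38935 bp for Grb10, so genes with more starts had more room. H3K4me3, the mark of active or poised promoters, was present in every list at 9 of the 10 genes at P7 (81.4% of the 16554 tested genes) and at 7 of the 10 at P14 (83.1%). H19 had none at P7 and 1 of 2 lists at P14, Dlk1 had both lists at P7 and neither at P14, and Meg3 had both at P7 and 1 at P14.

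Peaks were weak for several of the 10 genes. In each list the strongest promoter peak of a gene was ranked by p among all peaks of the list, and its median percentile over the tested genes with a peak was 67.8 to 68.7 at P7 and 76.1 to 76.7 at P14. Peg3 alone among the 10 was above the P7 medians, at 77.4 and 83.1, and stood at 75.3 and 77.2 at P14. Its peak was 1723 and 1904 bp wide at P7 and 2731 and 2909 bp at P14, with 4.25 to 5.37 fold enrichment, and covered the start shared with Usp29. Plagl1 stood at 61.9 and 50.6 at P7, with peaks of 1242 and 1129 bp over its cluster of CpG-rich starts, and at 72.9 and 65.7 at P14. Snrpn had 55.9 and 57.4 at P7, and every Snrpn peak of the 33 lists lay by its downstream start at position 60005111 of chromosome 7. The strongest Grb10 peaks stood at 41.2 and 33.6 in the P7 lists and at 72.8 and 73.2 in the P14 lists, which are longer and have higher medians, and they did not lie at the same start in every list. Mest (22.3 and 33.3 at P7), Igf2 (21.0 and 15.8), Meg3 (19.5 and 15.1) and Dlk1 (28.2 and 3.5) were in the lower part of the lists.

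**Figure D3:**
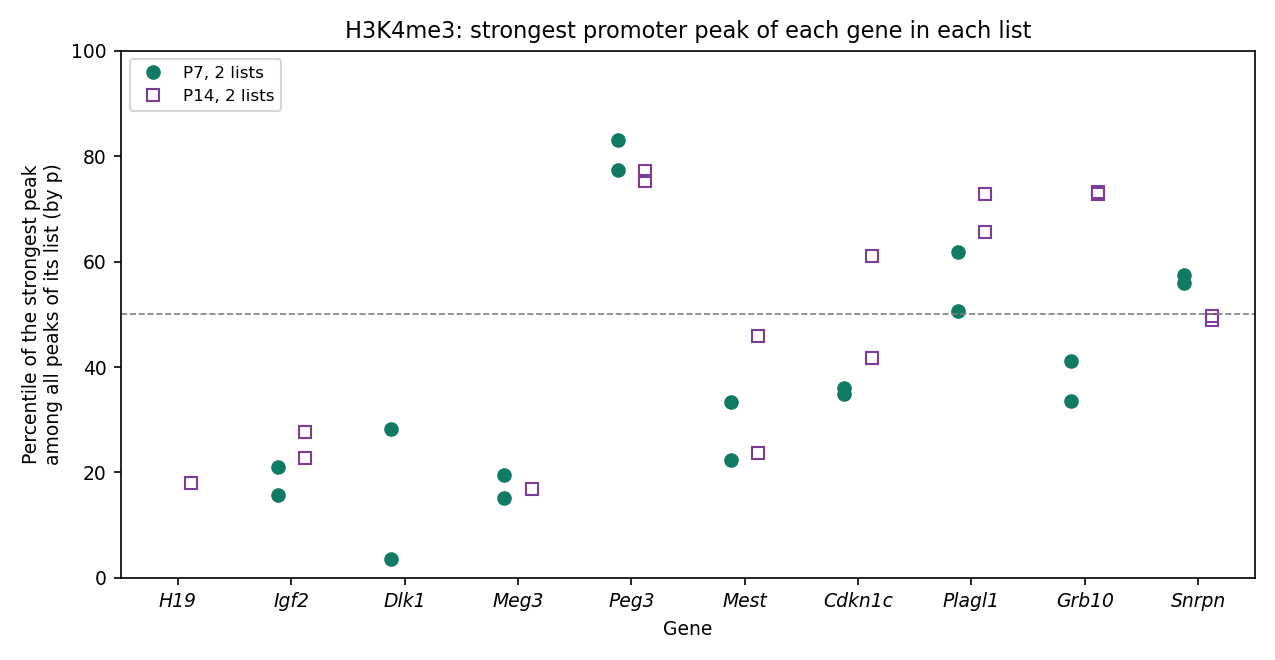
Percentile, by p within its list, of the strongest H3K4me3 peak at each gene, with filled circles for the 2 P7 lists and open squares for the 2 P14 lists; a missing point means no promoter peak and the dashed line is the middle of the list. Peg3 lies between 75.3 and 83.1 in the 4 lists, and Igf2, Dlk1, Meg3 and H19 reach at most 28.2.

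H3K27ac, a mark of active promoters and enhancers, was scarcer. At P7 it was in both lists at 1 gene, Peg3, against 42.8% of tested genes. At P14 it was in both lists at 4 genes (Meg3, Peg3, Plagl1 and Grb10), against 66.2%. The Peg3 peak at P14 was 1843 and 1856 bp wide and ranked at 93.1 and 98.6 in its lists, and the Meg3 peaks ranked at 20.0 and 6.6.

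Arginine methylation was compared mark by mark, counting genes with a peak in every list. At P7, H4R3me2a, the histone H4 product of Prmt1, reached none of the 10 genes in all 3 lists (5.49% of tested genes) and 7 in at least 1 list (49.6%). H3R2me2a reached 5 (H19, Igf2, Dlk1, Meg3 and Peg3; 14.1%), H3R8me2a 2 (Igf2 and Peg3; 13.0%) and H4R3me1 2 (Igf2 and Dlk1; 14.1%). With peaks of q at most 0.01 none of the 10 had a P7 arginine mark in every list. Few tested genes did at that setting. H4R3me2s reached 2.11% of them in WT and 0.296% in Prmt1-dKO, H3R8me2a 1.32%, H4R3me1 0.942%, H3R2me2a 0.574% and H4R3me2a 0.302%, so a count of 0 of 10 does not set these genes apart.

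At P14 the lists of every mark but H4R3me2s were longer than those of the same mark at P7, and the background was higher for the same marks. List sizes overlapped between the ages, from 18423 to 55908 peaks at P14 and from 15361 to 36145 at P7. H4R3me2a reached 3 genes (Igf2, Peg3 and Grb10; 39.1% of tested genes), H3R2me2a 5 (Igf2, Peg3, Mest, Plagl1 and Grb10; 64.7%), H3R8me2a 6 (Igf2, Dlk1, Peg3, Mest, Grb10 and Snrpn; 43.6%) and H4R3me1 4 (Igf2, Dlk1, Peg3 and Grb10; 39.4%). H4R3me2s, the symmetric form placed by other enzymes, reached 3 (Igf2, Meg3 and Peg3; 22.3%), in lists whose peak names carry the number 17 where those of P7 carry 7, so their age rests on the sample labels. Over all 33 lists, Igf2 and Peg3 had a promoter peak in 28 each and Snrpn in 8 and Cdkn1c in 9, beside a median of 17 over the tested genes (25th to 75th percentile 11 to 23). The P14 samples are titled spermatogonia but carry the cell type label spermatocyte, whereas both labels read spermatogonia at P7, so age, cell type and list length cannot be told apart.

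**Figure D4:**
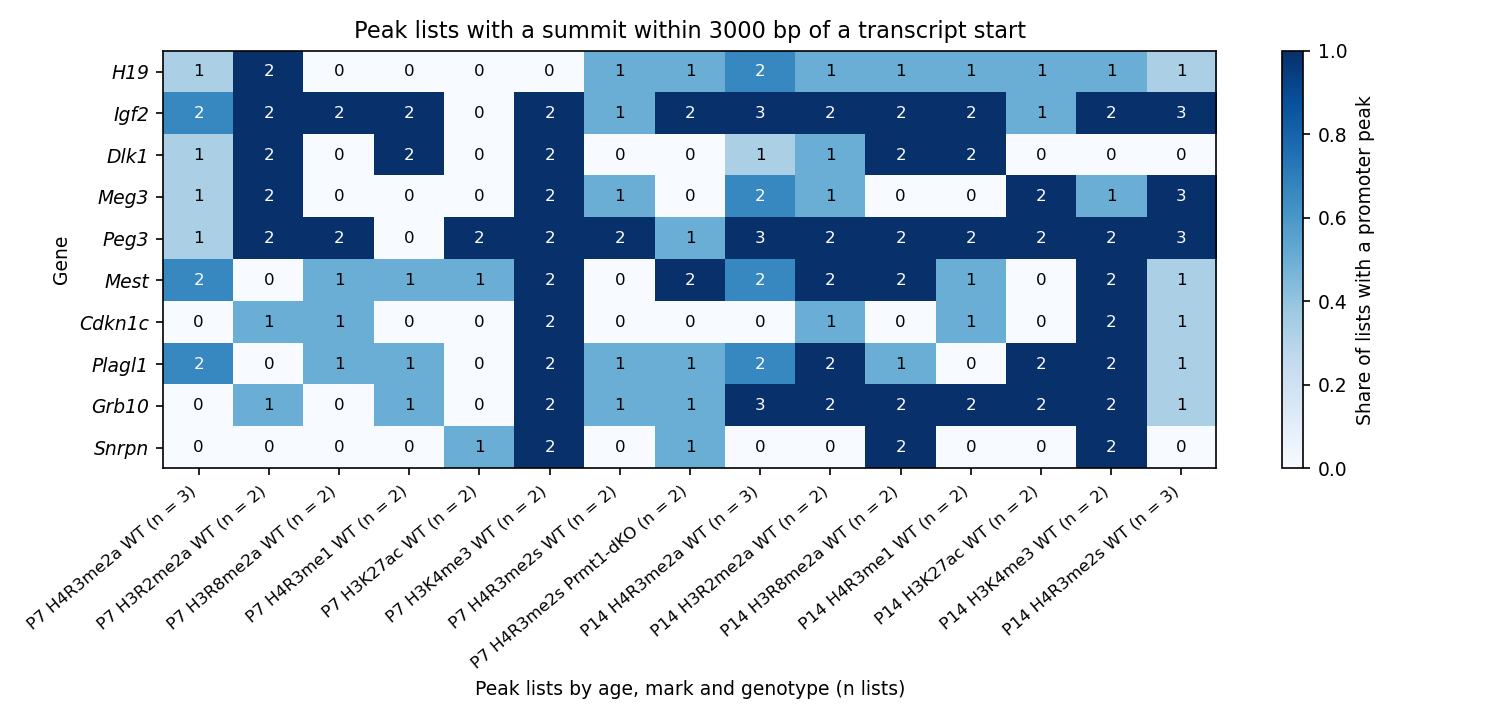
Number of peak lists with a summit within 3000 bp of a transcript start, for each gene (rows) and each age, mark and genotype (columns, with the number of lists); the shade is the share of lists. The H3K4me3 columns are nearly full, and Igf2 and Peg3 have the most filled cells across the arginine marks.

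Loss of Prmt1 could be compared for H4R3me2s at P7 only. In WT 1 gene was marked in both lists (Peg3; 24.0% of tested genes) and in Prmt1-dKO 2 were (Igf2 and Mest; 12.6%). Igf2 had a peak in 1 of 2 WT lists and Peg3 in 1 of 2 Prmt1-dKO lists, so the exchange rests on single lists. Mest had no peak in WT and 1 in each Prmt1-dKO list, at percentiles 22.2 and 12.1 of those lists and at distances of -567 and 987 bp from a start, so they were not the same peak. With lists cut to equal length 1 gene was marked in Prmt1-dKO. The depth of these libraries is unknown and no test was made.

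Summits that recurred at one place were followed at 2 genes, noticed after the lists had been read. H19 and Grb10 also had summits close together in several lists. At Peg3, 14 of the 25 arginine lists and 3 of the 4 H3K27ac lists had a summit 2055 to 2337 bp downstream of the start, inside the first intron. None of the 4 H3K4me3 lists had a summit there, although the wide H3K4me3 peak of both P14 lists covered the place. By age these were 6 of 17 lists at P7 and 11 of 16 at P14, at fold enrichments of 2.82 to 5.4 and a median percentile of 89.6 in their lists. The 300 bases centred on the median summit are shown because they carry this recurrence. Capitals mark the motif GCCATNTT, bound by YY1, searched on both strands.
Peg3 first intron, chr7:6728061-6728360, minus strand: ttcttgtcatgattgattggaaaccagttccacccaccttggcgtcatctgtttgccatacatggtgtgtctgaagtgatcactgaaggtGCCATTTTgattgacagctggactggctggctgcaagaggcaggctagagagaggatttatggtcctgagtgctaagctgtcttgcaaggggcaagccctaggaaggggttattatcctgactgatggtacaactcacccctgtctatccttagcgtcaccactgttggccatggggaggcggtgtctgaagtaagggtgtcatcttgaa
It matched 1 time in these bases. Of windows of the same length at 21844 peaks of 1 list, P7 H3K27ac WT replicate 1, 5.46% held a match. The window holds 3 CpG.

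At Igf2, 19 of the 25 arginine lists had a summit at -1428 to -710 bp from the most upstream start, which lies at position 142666816 of chromosome 7, with a median of -1045 bp and a median percentile of 74.1. None of the H3K27ac or H3K4me3 lists had one there. The H3K4me3 peaks of Igf2 lay instead near its downstream starts, and the RefSeq window at chr7:142658805-142659054, with 22 CpG, overlapped a peak in all 4 H3K4me3 lists.

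**Figure D5:**
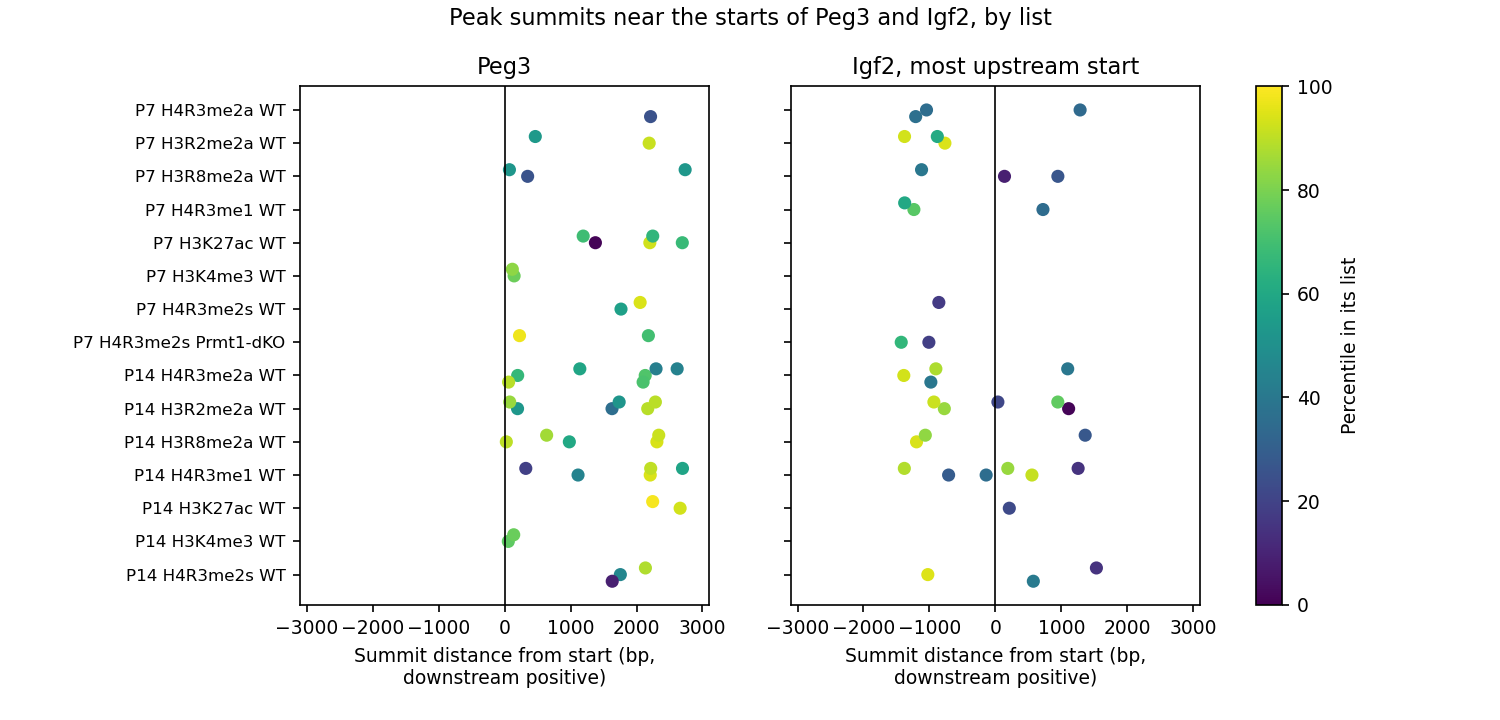
Distance of every peak summit from the start of Peg3 (left) and from the most upstream start of Igf2 (right), in bp with downstream positive, by list group; colour is the percentile by p within the list. Peg3 summits of arginine marks and H3K27ac gather near 2208 bp downstream while H3K4me3 summits lie at 57 to 145 bp, and Igf2 summits of arginine marks gather near -1045 bp.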

How the data were processed

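RNA libraries were P7 bulk RNA-seq (3 WT, 3 Prmt1-dKO) and Smart-seq2 (2 and 2). The authors trimmed reads with fastp 0.23.2, aligned them with STAR and deposited RSEM tables of expected counts, TPM and FPKM per gene. The expected counts were rounded to whole numbers and tested with edgeR 4.0.16 (quasi-likelihood, TMM, filterByExpr, Benjamini-Hochberg adjustment, threshold 0.05). A call in the assay comparisons and the bulk 2-fold count also needed a 2-fold change; counts by adjusted p alone were added after the differences in bulk were seen to lie under 2-fold. The code was tested on simulated data. Peak lists were called by the authors per sample with MACS2 2.1.0 on mm10, at p 0.005 (H3K4me3 at q 0.05, per the peak names). The deposited columns are a score, the fold enrichment, a ratio, and −log10 p and −log10 q values, so a peak list gives no depth. Of 55401 gene identifiers 55141 matched GENCODE vM21 and 260 did not. DESeq2 1.42.0, limma-voom 3.58.1, other scalings and filters, a replicate block and leaving out each library were alternatives. Genes named beside the 10 were, per list and comparison, up to 3 called genes of largest change with at least 50 counts on average, plus Igf2r and Kcnq1ot1, plus neighbours sharing a promoter or exons. Genes and lists were chosen with earlier results of these data known. Intervals are exact (Clopper-Pearson, 95%) and cover counting error only. Whether RSEM used strand was not given in the sources used here.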

Additional observations from a re-analysis of the deposited data

Results flagged for a closer look

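The genotype difference of 4 genes differed between Smart-seq2 and bulk RNA-seq by the interaction term of the edgeR fit over 10 libraries. The value was 11.49 on the log2 scale for Plagl1, 7.27 for Meg3, 6.07 for Mest and 1.72 for Cdkn1c, and without single libraries it ran from 9.05 to 12.36, 6.46 to 9.28, 5.09 to 11.95 and 1.48 to 1.82. Plagl1 and Mest had lower levels in bulk Prmt1-dKO and higher counts in sorted Prmt1-dKO cells, Meg3 was higher in both, and Cdkn1c had a log2 fold change of 0.02 in bulk and 1.65 in sorted cells. No group had more than 3 samples, so single samples could not be screened for lying far from the others.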

How the results depend on the processing

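In bulk RNA-seq the 5 lower genes became 3 with the replicate block, where Igf2 (adjusted p = 0.133) and Plagl1 (0.0572) were lost, and 3 to 5 without single libraries, of which 0 to 1 were 2-fold lower. H19, Dlk1, Mest and Meg3 passed in all 6 such fits. Higher genes in Smart-seq2 numbered 0 by edgeR, 4 by DESeq2 and 3 by limma-voom. Leaving out a Smart-seq2 library leaves 1 in its group, without a spread of its own, so no count of passing genes is given for such fits. Signs turned only for differences that did not pass with all libraries: in bulk, Peg3 (-0.44 to 0.12), Cdkn1c (-0.11 to 0.12) and Snrpn (-0.19 to 0.03); in Smart-seq2, Igf2 (-0.25 to 0.47), Dlk1 (-0.31 to 1.92), Peg3 (-0.16 to 0.55) and Snrpn (-1.76 to 0.13); between assays, Snrpn (-0.18 to 1.7 in WT, -0.05 to 0.22 in Prmt1-dKO); for the interaction, H19 (-1.87 to 0.13) and Snrpn (-1.61 to 0.27). Same-numbered libraries did not deviate together (r -0.22 to 0.08 in bulk, 0.02 in Smart-seq2), so the replicate numbers were not taken as pairs. Over all genes, the 881 called higher in bulk became 1367 with DESeq2 and 1777 with no filter on low counts, and the 687 with a negative 2-fold interaction became 1338 with DESeq2. The median interaction of all genes, 0.22, was 0.1 with RLE size factors, 0.47 with limma-voom, 0.02 with DESeq2 and 0.04 with no filter.

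Counts of marked genes moved most. With a 1000 bp window they were 2 for P7 H3R2me2a, 1 for H3R8me2a, H4R3me1 and Prmt1-dKO H4R3me2s, and 0 for H3K27ac and WT H4R3me2s; at P14, 3 for H3R8me2a, 2 for H4R3me1 and 1 for H3K27ac and H4R3me2s. With q at most 0.01 they were 0 for every P7 mark but H3K4me3 (9), and at P14 1 for H4R3me2a, 3 for H3R2me2a, 2 for H3R8me2a and H4R3me1, 1 for H3K27ac and 0 for H4R3me2s. With lists of equal length they were 1 for P7 Prmt1-dKO H4R3me2s, and at P14 1 for H4R3me2a, 3 for H3R2me2a and H3R8me2a, 2 for H4R3me1, 1 for H3K27ac and 0 for H4R3me2s. With 1 list sufficing they were 7, 5, 5, 3, 6 and 7 for P7 H4R3me2a, H3R8me2a, H4R3me1, H3K27ac, WT H4R3me2s and Prmt1-dKO H4R3me2s, and 8, 9, 7 and 8 for P14 H4R3me2a, H3R2me2a, H4R3me1 and H4R3me2s. Leaving out a list gave 0 to 2, 2 to 5, 3 to 4, 1 to 3, 3 to 4 and 4 to 5 at P7 in the same order, and 4 to 5 for P14 H4R3me2a and 6 to 8 for P14 H3R2me2a. H3K4me3 kept 9 at P7 under the window and q settings. The cause of these moves was not tested.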
